A study of Mus musculus with 4 samples.

Results

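The genes described here are 10 transcription factors of the trophectoderm, the outer epithelium of the blastocyst from which the placenta forms. They are Cdx2, Eomes, Elf5, Gata2, Gata3, Tfap2a, Tfap2c, Tead4, Hand1 and Id2, taken by name from the 23235 gene symbols of the deposited tables, where the older symbols Tcfap2a and Tcfap2c stand as Tfap2a and Tfap2c. All 10 were present, and all 10 passed the filter for testing, a mean of at least 1 FPKM (fragments per kilobase of transcript, scaled to the mapped total) over the libraries. RNA was sequenced from mouse early blastocysts that came from nuclear transfer (SCNT), where the nucleus of a somatic cell is put in place of the oocyte's own, or from in vitro fertilization (IVF), with 2 libraries per group and 6 pooled embryos per library, lysed at 96 hours after activation or fertilization.

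The SCNT embryos were made from recipient oocytes of B6D2F1/J females. The submitters describe fibroblasts of embryos heterozygous for an Xist knockout, from 129S1/SvImj mothers carrying the knockout and CAST/EiJ fathers, as the cells prepared for the work. The deposited columns of the SCNT libraries also carry the name kdm4d, a histone demethylase gene that the labels do not mention, and the sources used here do not say whether these embryos received it. Kdm4d itself stood at 0.0649 and 0.117 FPKM in SCNT libraries, against 0 and 0.0382 FPKM in IVF libraries. For IVF, oocytes with the Xist knockout on the 129S1/Svj background met wild-type CAST/EiJ sperm. The labels give both groups the same cross of strains, and that the fibroblasts described were the nuclear donors of these libraries is inferred. The groups differed at least in the oocyte's strain and in the way the embryo was made, and these cannot be told apart. Xist had 4.13 and 3.33 FPKM in SCNT libraries, against 1.09 and 13.9 FPKM in IVF libraries. Whether the groups also differed in the sex of the embryos was not tested.

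A mouse embryo sets trophectoderm apart from inner cell mass by cell position. In outer cells the coactivator YAP enters the nucleus and binds TEAD4, which turns on Cdx2, while Gata3 acts beside Cdx2 and the AP-2 factor Tfap2c supports both polarity and Cdx2. Cdx2 holds back the pluripotency genes Pou5f1 and Nanog, and together with Eomes and Elf5 it forms a self-sustaining circuit known from trophoblast stem cells. Elf5 is known as a lineage gate, since its promoter carries DNA methylation in cells of the embryo proper and lacks it in trophoblast.

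The promoters of the 3 factors that stood furthest apart between the groups, Cdx2, Eomes and Elf5, are shown first, with that of Gata3, whose groups overlapped. Each window runs from 250 bases before to 50 bases after a transcription start in RefSeq (GRCm38.p6), 5′ to 3′ on the gene's strand, and Elf5 has a window at each of 2 starts. Capitals mark matches to motifs of the factors themselves. Both strands were searched. The letters GGAATG stood for the TEAD family and GCCNNNGGC for the AP-2 family. For zinc-finger factors of the Gata family the letters were AGATAA, while AGGAAG was used for the ETS family. The T-box family was given by AGGTGT, and Cdx factors were represented by TTTATG. No matches overlapped each other.
Cdx2, chr5:147307200-147307499, minus strand: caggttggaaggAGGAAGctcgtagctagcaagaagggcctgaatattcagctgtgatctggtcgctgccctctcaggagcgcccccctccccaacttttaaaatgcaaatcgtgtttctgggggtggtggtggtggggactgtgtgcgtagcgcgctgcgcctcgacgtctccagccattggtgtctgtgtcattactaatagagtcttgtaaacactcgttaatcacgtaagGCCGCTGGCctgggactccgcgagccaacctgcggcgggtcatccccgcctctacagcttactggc
Eomes, chr9:118477939-118478238, plus strand: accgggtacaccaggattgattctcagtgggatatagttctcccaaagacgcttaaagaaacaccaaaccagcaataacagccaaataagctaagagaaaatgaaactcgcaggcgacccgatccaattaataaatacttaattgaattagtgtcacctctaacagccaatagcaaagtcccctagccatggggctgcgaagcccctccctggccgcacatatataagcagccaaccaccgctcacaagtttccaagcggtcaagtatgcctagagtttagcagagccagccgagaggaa
Elf5, first start, chr2:103411848-103412147, plus strand: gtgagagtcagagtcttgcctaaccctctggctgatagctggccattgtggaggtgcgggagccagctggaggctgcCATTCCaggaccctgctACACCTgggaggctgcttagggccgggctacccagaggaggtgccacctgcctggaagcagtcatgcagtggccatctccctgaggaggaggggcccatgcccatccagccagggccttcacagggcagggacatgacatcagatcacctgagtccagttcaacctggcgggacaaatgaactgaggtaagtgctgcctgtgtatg
Elf5, second start, chr2:103423818-103424117, plus strand: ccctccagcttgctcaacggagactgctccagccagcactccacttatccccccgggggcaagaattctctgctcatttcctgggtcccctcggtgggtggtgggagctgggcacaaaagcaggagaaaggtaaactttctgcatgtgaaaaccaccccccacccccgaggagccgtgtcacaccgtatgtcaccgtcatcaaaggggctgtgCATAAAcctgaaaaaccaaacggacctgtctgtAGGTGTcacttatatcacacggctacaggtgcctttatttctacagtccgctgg
Gata3, chr2:9878551-9878850, minus strand: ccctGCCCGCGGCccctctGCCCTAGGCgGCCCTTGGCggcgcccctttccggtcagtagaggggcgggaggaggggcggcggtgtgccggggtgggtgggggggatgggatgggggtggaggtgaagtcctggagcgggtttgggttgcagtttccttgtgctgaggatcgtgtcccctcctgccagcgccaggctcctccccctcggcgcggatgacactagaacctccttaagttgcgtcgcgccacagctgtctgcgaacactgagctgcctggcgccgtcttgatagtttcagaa

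The Cdx2 window held 1 AP-2 match, which began 16 bases before the start, and 1 ETS match. The first Elf5 window held a TEAD and a T-box match, and the second a Cdx and a T-box match, so both Elf5 windows contained the T-box letters that Eomes recognises as a family. The Gata3 window held 3 AP-2 matches near its upstream end, and the Eomes window held none of the 6 motifs. Among 32851 RefSeq windows of the same length, 14.7% held the TEAD letters, 16.6% the AP-2 letters, 11.2% the Gata letters, 35.4% the ETS letters, 13.7% the T-box letters and 11.9% the Cdx letters. CpG dinucleotides, the sites of DNA methylation, numbered 3 in the first and 10 in the second Elf5 window, against 18 for Cdx2, 10 for Eomes and 22 for Gata3, with a median of 7 over all windows. A match is a description of the letters and was not tied to binding, and 7 of the 10 factors had a window.

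The factors covered a wide range of levels. In SCNT libraries the order by mean FPKM was Id2 (768), Gata3 (135), Gata2 (38.3), Tfap2c (36.2), Eomes (33.9), Cdx2 (33.0), Tead4 (30.9), Tfap2a (13.8), Elf5 (13.7) and Hand1 (2.05). In IVF libraries it was Id2 (594), Gata3 (127), Tfap2c (42.2), Gata2 (34.1), Tead4 (33.0), Cdx2 (20.8), Eomes (16.5), Tfap2a (10.1), Elf5 (3.56) and Hand1 (2.81). Each neighbouring pair from Gata2 down to Tead4 had overlapping libraries in SCNT, as did Tfap2a and Elf5. In IVF libraries Tfap2c, Gata2 and Tead4 overlapped as neighbours, Cdx2 and Eomes each stood apart from the gene above and below, and Elf5 overlapped Hand1. Elf5 thus lay beside Tfap2a in SCNT and beside Hand1 in IVF.

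**Figure D1:**
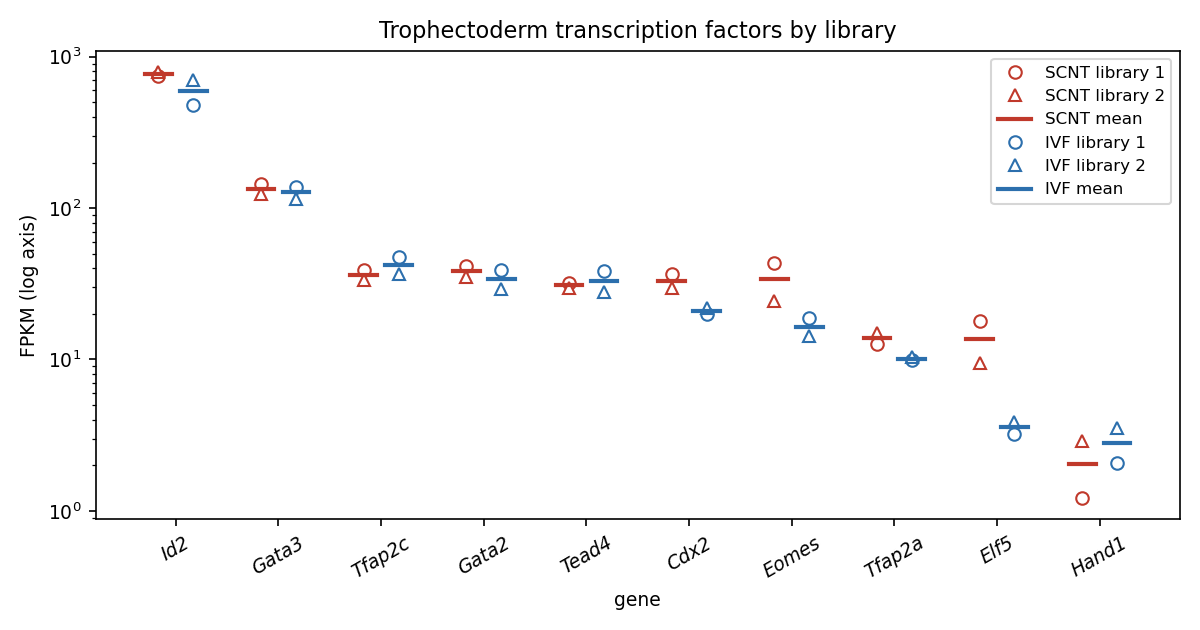
FPKM (log axis) of the 10 trophectoderm factors, ordered by their mean over all libraries, with SCNT left of IVF for each gene; circles are libraries numbered 1, triangles those numbered 2, and bars the mean of the 2 libraries. Both SCNT libraries lie above both IVF libraries for Id2, Cdx2, Eomes, Tfap2a and Elf5, and the groups overlap for the other 5.

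Differences between the groups were taken as SCNT minus IVF on the log2(FPKM + 1) scale, which understates the change of low genes, and tested with limma over 11039 genes. No factor passed at an adjusted p under 0.05, against 0.127% of all tested genes (14 genes). At an unadjusted p under 0.05 there were 3 of 10 factors, Elf5, Cdx2 and Eomes, all higher in SCNT, where 4.25% of tested genes were higher and 2.84% lower at that threshold. The 3 became 2 without IVF library 1, 1 without IVF library 2 and 1 without SCNT library 1, and leaving out any 1 library raised the 14 genes called over the whole table to between 36 and 43, with no factor among them. In each of these fits a group has 1 library, which is assumed to vary like the 2 of the other group. Both SCNT libraries lay above both IVF libraries for 5 of 10 factors, against 18.3% of tested genes, and none lay below, against 15.1%. Markers of other lineages did likewise, with both SCNT libraries above both IVF libraries for 5 of 10 inner cell mass and epiblast markers and 4 of 8 tested primitive endoderm markers, and below for none of either. Of the 10 trophectoderm markers, 3 lay above and 1 below. The median difference of the 10 factors was 0.28, beside 0.01 over all tested genes, with a range of -0.35 to 1.63. The labels do not tell whether a group's libraries had different parents or were made on different days. The p-values therefore cover the spread among these libraries alone, and that spread may be technical.

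Cdx2, Eomes and Elf5, the genes of the trophoblast stem cell circuit, had the 3 highest differences of the 10. Elf5, an ETS-family factor, had 17.9 and 9.50 FPKM in SCNT libraries 1 and 2, against 3.23 and 3.88 FPKM in IVF libraries 1 and 2. The lower SCNT library was still more than 5 FPKM above the higher IVF library, and the SCNT libraries differed from each other more than the IVF libraries did. The means were 13.7 ± 5.97 FPKM in SCNT and 3.56 ± 0.461 FPKM in IVF (SD, n = 2 each), a ratio of 3.86. The log2 difference was 1.63 ± 0.32 (SE; limma adjusted p = 0.320), and 117 of the 11039 genes, Elf5 included, had an unadjusted p as small or smaller. Ranked among tested genes within a library, Elf5 stood at the 63.0 and 49.0 percentiles in SCNT and at the 23.0 and 27.4 percentiles in IVF, so its higher place did not depend on scaling between libraries.

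Eomes, a T-box factor needed for trophectoderm to proliferate after implantation, had 43.5 and 24.4 FPKM in SCNT libraries, against 18.8 and 14.2 FPKM in IVF libraries. The groups did not overlap and were 5.59 FPKM apart at their nearest. The means were 33.9 ± 13.6 and 16.5 ± 3.20 FPKM (SD, n = 2 each) in SCNT and IVF, a ratio of 2.06. The log2 difference was 0.95 ± 0.32 (SE; limma adjusted p = 0.602). It was 0.55 without SCNT library 1, the library with the highest Eomes and Elf5 values.

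Cdx2, the caudal-type homeobox factor that maintains trophectoderm, had 36.6 and 29.5 FPKM in SCNT libraries, against 20.0 and 21.7 FPKM in IVF libraries. The groups did not overlap, and the IVF libraries lay close together. The means were 33.0 ± 5.08 and 20.8 ± 1.26 FPKM (SD, n = 2 each) in SCNT and IVF, a ratio of 1.59. The log2 difference was 0.63 ± 0.19 (SE; limma adjusted p = 0.538), and it stayed between 0.48 and 0.79 when any 1 library was left out. No annotated gene overlaps Cdx2 or Elf5 in the RefSeq table used here.

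The factors that act upstream of Cdx2 or beside it had overlapping groups. Tead4, the DNA-binding partner of YAP, had 32.2 and 29.6 FPKM in SCNT libraries, against 38.1 and 27.9 FPKM in IVF libraries. The IVF values enclosed the SCNT values, with a log2 difference of -0.08 ± 0.22 (SE; limma adjusted p = 0.9996) that turned to 0.14 without IVF library 1. Gata3, a zinc-finger factor and the most abundant DNA-binding member, had 145 and 124 FPKM in SCNT libraries, against 139 and 115 FPKM in IVF libraries. Its groups interleaved, and library 1 was the higher in each group. The log2 difference was 0.09 ± 0.20 (SE; limma adjusted p = 0.9996), and it was -0.04 without IVF library 2 and -0.02 without SCNT library 1.

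Tfap2c, which encodes AP-2 gamma, had 39.2 and 33.3 FPKM in SCNT libraries, against 47.5 and 36.9 FPKM in IVF libraries. The groups overlapped, with a log2 difference of -0.21 ± 0.21 (SE; limma adjusted p = 0.9996) that shrank to -0.03 without IVF library 1. Its relative Tfap2a, which encodes AP-2 alpha, had 12.7 and 14.9 FPKM in SCNT libraries, against 9.92 and 10.4 FPKM in IVF libraries. The groups did not overlap, with a log2 difference of 0.41 ± 0.18 (SE; limma adjusted p = 0.775). Within each library Tfap2c exceeded Tfap2a, and the log2 ratio of Tfap2a to Tfap2c was -1.56 and -1.11 in SCNT libraries and -2.15 and -1.74 in IVF libraries. The AP-2 pair was therefore closer in level in both SCNT libraries than in either IVF library.

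The remaining factors are linked to other steps of trophoblast development. Gata2, which with Gata3 controls placental hormone genes in later trophoblast giant cells, had 41.3 and 35.2 FPKM in SCNT libraries, against 39.0 and 29.3 FPKM in IVF libraries. The groups overlapped, with a log2 difference of 0.17 ± 0.22 (SE; limma adjusted p = 0.9996) that was -0.03 without IVF library 2. Hand1, a basic helix-loop-helix factor that promotes giant cell differentiation, had 1.22 and 2.88 FPKM in SCNT libraries, against 2.07 and 3.54 FPKM in IVF libraries. It was the lowest of the 10, its groups overlapped, and library 2 was the higher in each group. Its log2 difference was -0.35 ± 0.35 (SE; limma adjusted p = 0.9996), and it turned to 0.05 without SCNT library 1.

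Id2, a helix-loop-helix protein that lacks a DNA-binding region and holds E proteins away from DNA, is an early marker of outer cells. It had 744 and 792 FPKM in SCNT libraries, against 482 and 705 FPKM in IVF libraries, and was the most abundant member in every library. The SCNT values were the higher, but IVF library 2 lay nearer to them than to IVF library 1. The log2 difference was 0.40 ± 0.26 (SE; limma adjusted p = 0.907), with 0.12 without IVF library 1 and 0.67 without IVF library 2. The E protein genes Tcf3, Tcf4 and Tcf12, whose products Id2 binds, had differences of -0.16, 0.21 and -0.18. None of these 3 passed with limma, and none had an unadjusted p under 0.05.

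**Figure D2:**
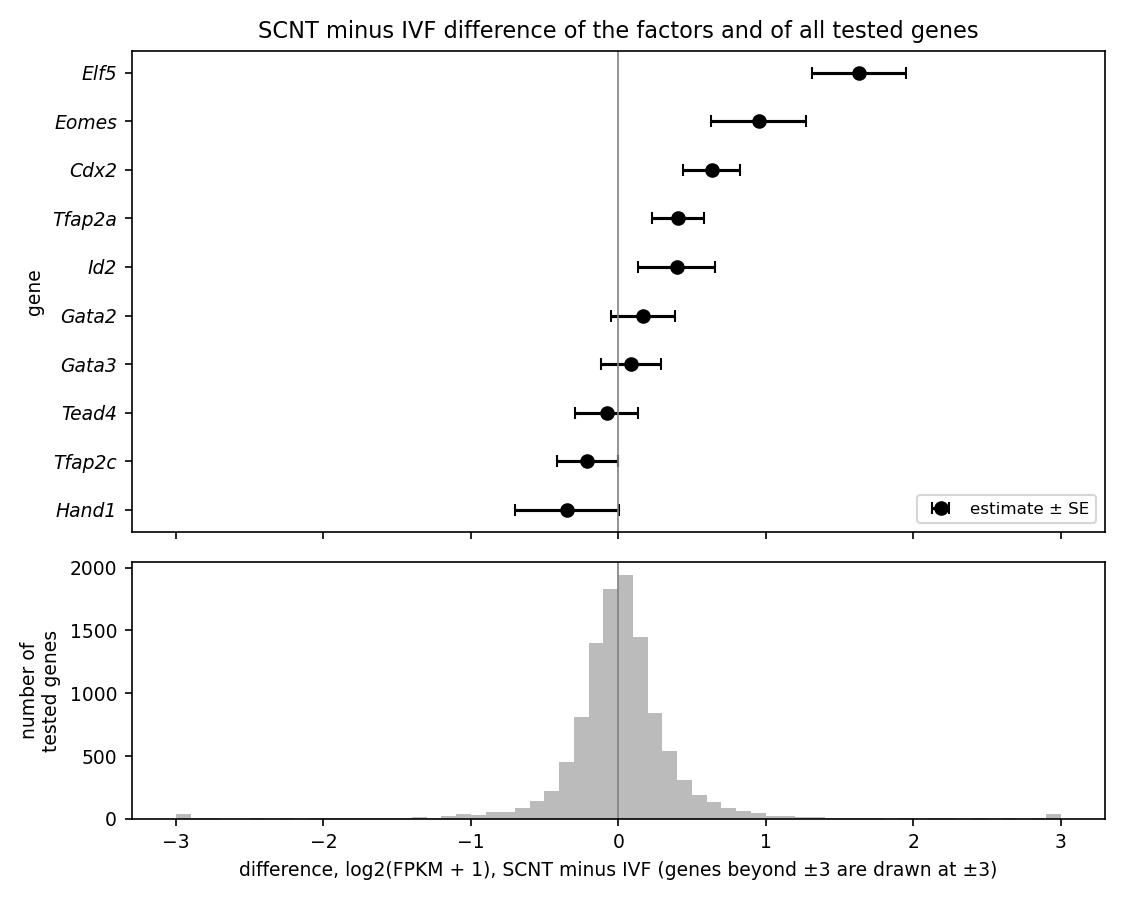
Upper panel, SCNT minus IVF difference on the log2(FPKM + 1) scale for each factor, with bars of ± 1 SE from limma; lower panel, the number of tested genes at each difference on the same axis. Elf5 at 1.63 lies furthest to the right, followed by Eomes at 0.95 and Cdx2 at 0.63, while Gata2, Gata3, Tead4, Tfap2c and Hand1 lie within 1 SE of 0.

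The libraries also differed by number within a group, to an unequal extent. SCNT library 1 exceeded SCNT library 2 on the log2 scale by 0.85 for Elf5, 0.81 for Eomes and 0.31 for Cdx2. IVF library 1 minus IVF library 2 was -0.21 for Elf5, 0.37 for Eomes and -0.12 for Cdx2. Gata2, Gata3, Tfap2c and Tead4 were higher in library 1 of both groups, and Id2, Tfap2a and Hand1 were higher in library 2 of both.

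In a ratio within a library the scaling cancels, except through the 1 FPKM added to each value. That added value weighs most on low genes, such as Elf5 in IVF libraries. Against Gata3, the log2 ratio of Elf5 was -2.95 and -3.58 in SCNT libraries and -5.04 and -4.58 in IVF libraries. That of Eomes was -1.71 and -2.31 in SCNT libraries and -2.82 and -2.93 in IVF libraries, and that of Cdx2 was -1.96 and -2.04 in SCNT libraries and -2.73 and -2.36 in IVF libraries. All 3 circuit genes were thus higher relative to Gata3 in both SCNT libraries than in either IVF library. Relative to Cdx2, Elf5 was at -0.99 and -1.54 in SCNT libraries and at -2.31 and -2.22 in IVF libraries, so the step was larger for Elf5 than for Cdx2. Against Krt8, a keratin gene of the trophectoderm epithelium, Elf5 stood at -6.50 and -7.09 in SCNT libraries and at -8.46 and -8.19 in IVF libraries. The ratio of Gata3 to Krt8 overlapped, with -3.55 and -3.51 in SCNT libraries and -3.42 and -3.62 in IVF libraries. These ratios were chosen after the values were seen and carry no test.

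Cdx2 was also set against the inner cell mass factors that it represses. Pou5f1, the gene of OCT4, had 120 and 154 FPKM in SCNT libraries, against 112 and 128 FPKM in IVF libraries, and Nanog had 104 and 136 FPKM in SCNT libraries, against 107 and 156 FPKM in IVF libraries. Both overlapped between the groups. The log2 ratio of Cdx2 to Pou5f1 was -1.69 and -2.34 in SCNT libraries and -2.43 and -2.51 in IVF libraries. That of Cdx2 to Nanog was -1.48 and -2.17 in SCNT libraries and -2.37 and -2.79 in IVF libraries. Both ratios were higher in both SCNT libraries, by a mean of 0.45 for Pou5f1 and 0.75 for Nanog. An exact two-sided permutation test over libraries gave p = 0.333 for each, the smallest p that 2 libraries against 2 allow. Without SCNT library 1 the differences were 0.13 and 0.41. In pooled whole embryos, fewer cells of a type and less RNA per cell cannot be told apart, so a ratio of this kind does not separate more outer cells from more Cdx2 RNA per outer cell.

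**Figure D3:**
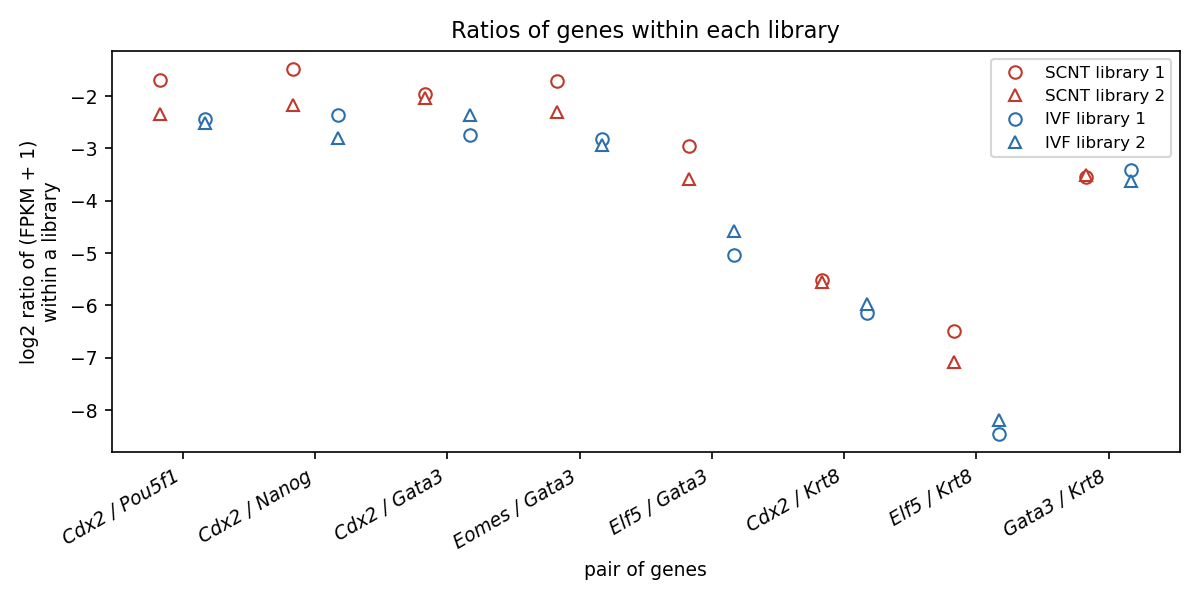
Log2 ratio of (FPKM + 1) of pairs of genes within each library, with SCNT left of IVF, circles for libraries numbered 1 and triangles for those numbered 2. Every pair shown is higher in each SCNT library than in either IVF library except Gata3 to Krt8, whose libraries overlap; for Cdx2 to Pou5f1, SCNT library 2 at -2.34 lies close to IVF library 1 at -2.43.

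RNA levels of the factors' relatives were read in the same pooled whole blastocysts, which does not show which family members act in trophectoderm. Of 26 relatives, 16 were tested and none passed with limma. At an unadjusted p under 0.05, 1 was higher and none lower, against 4.25% and 2.84% of tested genes. Both SCNT libraries were higher for 6 and lower for none, against 18.3% and 15.1% of tested genes. The median difference of the tested relatives was 0.15. Gata4, a primitive endoderm factor, had 9.77 and 9.18 FPKM in SCNT libraries, against 6.59 and 5.09 FPKM in IVF libraries (log2 difference 0.62, limma adjusted p = 0.548). Tead1, which shares the YAP-binding role of Tead4, had 9.28 and 7.65 FPKM in SCNT libraries, against 5.96 and 6.17 FPKM in IVF libraries, a difference of 0.42. Elf1, another ETS-family gene, differed by 0.39 and Tead3 by 0.30. Elf3, an epithelial ETS factor of the same subfamily as Elf5, was far more abundant than Elf5, with 436 and 267 FPKM in SCNT libraries and 348 and 231 FPKM in IVF libraries, and its groups overlapped. The near relatives Cdx4, Tbr1, Hand2, Id4 and Ehf were each under 0.1 FPKM in every library.

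The position-sensing inputs to Cdx2 include genes that hold YAP back, such as Lats2 and Nf2, as well as Yap1 itself. None passed a test, and the counts and median below pool both kinds. Of 25 genes of the Hippo pathway, Notch signalling and apical polarity, 22 were tested, none passed with limma and none had an unadjusted p under 0.05. The groups did not overlap for 6 of the 22, of which 4 were higher and 2 lower in SCNT, against 18.3% and 15.1% of tested genes, and the median difference was 0.02. Yap1, the coactivator gene, had 13.6 and 11.2 FPKM in SCNT libraries, against 15.8 and 9.06 FPKM in IVF libraries, and Rbpj, the DNA-binding factor of Notch signalling, had 20.9 and 17.6 FPKM in SCNT libraries, against 19.0 and 18.0 FPKM in IVF libraries; these 2 were picked as familiar genes after their values were seen. By the naming rule, Lats2, a kinase that inactivates YAP, differed by 0.40, the small GTPase gene Rhoa by 0.27 and the YAP relative Wwtr1 by 0.30. The Hippo activator Nf2 differed by -0.32, with overlapping groups. RNA levels do not show where YAP lies in the cell.

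Among other transcription regulators of trophoblast, 19 of 26 were tested and none passed with limma. At an unadjusted p under 0.05, 1 was higher and 2 were lower, against 4.25% and 2.84% of tested genes. SCNT stood apart as higher for 2 and as lower for 4, against 18.3% and 15.1% of tested genes, with a median difference of 0.01. Tbx20, a T-box gene, had 2.45 and 3.04 FPKM in SCNT libraries, against 4.70 and 5.46 FPKM in IVF libraries (log2 difference -0.70, limma adjusted p = 0.506). The homeobox gene Msx2 had 3.13 and 3.53 FPKM in SCNT libraries, against 5.41 and 5.81 FPKM in IVF libraries (-0.61, adjusted p = 0.517). Grhl1, a grainyhead-like epithelial factor, differed by 0.67, and the zinc-finger gene Ovol1 by -0.40. Within this list Ascl2, Gcm1, Dlx3, Dlx5 and Pparg were under 1 FPKM in every library. Other regulators of the list were not low. Tfeb, for instance, had 72.1 and 59.5 FPKM in SCNT libraries, against 77.5 and 59.9 FPKM in IVF libraries.

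Effector genes of the trophectoderm, those for its keratins, pump, channels, junctions and receptors, had 39 tested members of 42. None passed with limma, and 6 were higher and 1 lower at an unadjusted p under 0.05, against 4.25% and 2.84% of tested genes. Both SCNT libraries were higher for 9 and lower for 5, against 18.3% and 15.1% of tested genes, and the median difference was 0.08. Plac1, an X-linked placental gene, had 90.1 and 86.9 FPKM in SCNT libraries, against 21.8 and 33.3 FPKM in IVF libraries (log2 difference 1.68 ± 0.25, SE; limma adjusted p = 0.224). The groups were more than 50 FPKM apart. The keratin gene Krt19 differed by 2.04, the tetraspanin gene Tspan8 by 1.07 and the megalin gene Lrp2 by -0.87. The genes that build the epithelium itself were closer between the groups, with a difference of 0.10 for Krt8 and 0.10 for Cdh1, the E-cadherin gene, both picked after their values were seen. Fgfr2, the receptor through which trophectoderm receives FGF4, had 44.1 and 35.5 FPKM in SCNT libraries, against 29.6 and 25.8 FPKM in IVF libraries (0.50, adjusted p = 0.710).

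Transcription factors of inner cell mass and epiblast had 20 tested members of 22, of which none passed with limma. At an unadjusted p under 0.05, 2 were higher and none lower, against 4.25% and 2.84% of tested genes. Both SCNT libraries were higher for 4 and lower for none, against 18.3% and 15.1% of tested genes, and the median difference was -0.06. Tcl1, an Akt cofactor gene, differed by 0.84 and Sall1, a zinc-finger factor, by 0.73. Esrrb, an orphan nuclear receptor of both embryonic and trophoblast stem cells, differed by 0.55, and Utf1, a chromatin factor, by 0.45. For Esrrb and Utf1 the groups overlapped. Sox2, which is used by epiblast and trophoblast stem cells alike, had 8.03 and 10.1 FPKM in SCNT libraries, against 9.93 and 9.03 FPKM in IVF libraries, and overlapped. The lists are not independent, since some genes, such as Esrrb and Gata4, stand in more than 1 of them, and all 10 trophectoderm markers are also effector genes.

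**Figure D4:**
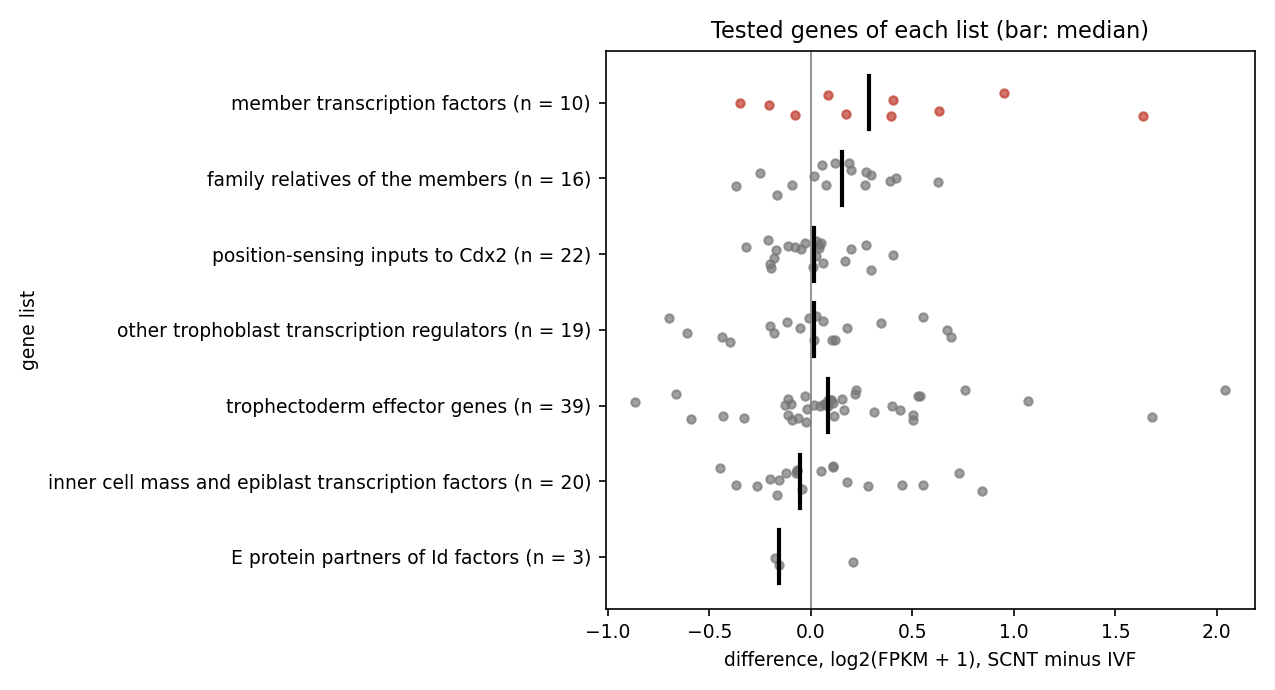
SCNT minus IVF difference on the log2(FPKM + 1) scale for the tested genes of each list, 1 point per gene, with a black bar at the list's median; the number of tested genes stands beside each name. The 10 factors have a median of 0.28, the Cdx2 inputs cluster around 0.02, and the effector genes spread from -0.87 to 2.04.

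The libraries fitted their labelled tissue. All 10 trophectoderm markers and all 10 inner cell mass markers were at 1 FPKM or more in every library. Summed over the trophectoderm markers, the level was 7001 and 4797 FPKM in SCNT libraries, against 5087 and 4254 FPKM in IVF libraries. This sum overlapped between the groups and was highest in SCNT library 1, as were Elf5, Eomes and Cdx2. Most of it came from Krt18 and Krt8, at 3979 and 1710 FPKM in SCNT library 1. Krt7, Lrp2, Dsp and Aqp3 were not highest in that library. The summed inner cell mass markers were at 872 and 886 FPKM in SCNT libraries, against 756 and 748 FPKM in IVF libraries, without overlap. The primitive endoderm markers were at 374 and 322 FPKM in SCNT libraries, against 371 and 277 FPKM in IVF libraries, and overlapped. The 12 donor fibroblast markers summed to 6.48 and 1.41 FPKM in SCNT libraries, against 3.57 and 1.79 FPKM in IVF libraries, and in each library 11 or all 12 of them were under 1 FPKM. Listed at 0 were 2 and 3 fibroblast markers in SCNT libraries and 3 and 5 in IVF libraries. Oocyte markers summed to 4.01 and 2.14 FPKM in SCNT libraries, against 5.90 and 2.75 FPKM in IVF libraries, with 10 of 10 under 1 FPKM in both SCNT libraries and 8 and 9 in IVF libraries. Cumulus and granulosa markers summed to 1.92 and 1.10 FPKM in SCNT libraries, against 2.29 and 1.68 FPKM in IVF libraries, with 8 and 9 of 9 under 1 FPKM in SCNT libraries and 8 in both IVF libraries. Short RNA genes (microRNAs and small nucleolar RNAs) took a share of the summed FPKM of 9.50% and 9.73% in SCNT libraries, against 12.4% and 12.2% in IVF libraries, and rescaling to the total without these genes left Elf5 at 1.59, Eomes at 0.90 and Cdx2 at 0.58. The part of the marker sums in the factors' differences was not tested.

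Among genes that overlap a factor in the RefSeq table, a pair at Gata3 had values. The transcript 9230102O04Rik had 4.05 and 7.56 FPKM in SCNT libraries, against 1.40 and 2.50 FPKM in IVF libraries (log2 difference 1.18 ± 0.34, SE; limma adjusted p = 0.517), and 4930412O13Rik had 1.10 and 1.13 FPKM in SCNT libraries, against 0.376 and 0.743 FPKM in IVF libraries. Both SCNT libraries were higher for each, while Gata3 itself overlapped. The sources used here do not say whether strand was used in counting, so reads of overlapping genes at this locus are uncertain.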

How the data were processed

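The values deposited by the authors, 1 per gene symbol and library, were taken to be FPKM. This was inferred from Cufflinks among the tools and from the values, because the headers name no unit. TopHat2 2.0.14, Bowtie2 2.1.0, Cufflinks 2.2.1 and the mm9 build were used, per the submitters' processing notes. Per the labels' protocols, RNA went from lysed embryos straight into cDNA synthesis, and the cDNA was amplified with a SMARTer kit before shearing, which adds noise to low genes. The sources used here do not give annotation, strand, filters or scaling.

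Samples were grouped by title. From FPKM, log2(FPKM + 1) was computed and fitted with limma 3.58.1 (R 4.3.3), with group as the only term, a mean-variance trend and Benjamini-Hochberg adjustment over all 11039 genes with a mean of at least 1 FPKM. Absolute depth is unknown, so no counting error is given. FPKM summed to between 933167 and 985197 per library, and between 10802 and 10923 genes reached 1 FPKM. There were 13 alternatives. All factors are named, then up to 4 genes of each list by smallest unadjusted p, and further genes where stated, with family relatives and Pou5f1, Nanog and Sox2 given as levels. The members and lists were chosen with earlier results of these data known, so no set test was made. A search for genes of like pattern was not made, since 4 libraries are too few. Promoter windows, gene overlaps and older symbols came from RefSeq tables of GRCm38.p6, which is not the authors' build, and no coordinates of the authors' features are given.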

Additional observations from a re-analysis of the deposited data

How the results depend on the processing

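No factor passed the limma threshold under any of the 13 alternatives (other pseudocounts, filters, scalings and variance priors, the replicate block, and leaving out each library). Over all genes the number past it was 14, 20 with the replicate number as a block, and 36 to 43 when 1 library was left out. Deviations of same-numbered libraries from their group means correlated at r = 0.31 over 11039 genes (2 pairs, which share only a number). With 2 libraries per group, the opposite pairing gives the same r with the opposite sign. The value therefore cannot show that the numbers pair the libraries. With the block, the limma adjusted p was 0.142 for Elf5, 0.122 for Eomes and 0.179 for Cdx2. In that fit 5 factors instead of 3 had an unadjusted p under 0.05. Leaving out IVF library 1 gave 2 such factors, IVF library 2 gave 1, SCNT library 1 gave 1 and SCNT library 2 gave 3. Elf5, Eomes, Cdx2, Tfap2a, Id2 and Tfap2c kept their direction under all alternatives, with ranges of 1.09 to 2.06, 0.55 to 1.36, 0.48 to 0.79, 0.29 to 0.52, 0.12 to 0.67 and -0.39 to -0.03. With 1 library left out, Tead4 ran from -0.298 to 0.14 (positive without IVF library 1), Gata2 from -0.0296 to 0.371 (negative without IVF library 2), Gata3 from -0.0447 to 0.216 (negative without IVF library 2, and -0.0243 without SCNT library 1) and Hand1 from -0.749 to 0.0538 (positive without SCNT library 1). The cause of these turns was not tested. The factors' median ran from 0.20 to 0.29 when 1 library was left out, and was 0.40 with the filter at 5 FPKM, which removes Hand1. The ratios of Cdx2 to Pou5f1 and to Nanog stayed higher in SCNT, at 0.13 to 0.78 and 0.41 to 1.10 with 1 library left out. The unknown depth limits what can be said of Hand1, the lowest factor.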
